A study of Homo sapiens with 15 samples.

Results

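Alloxan was added to glucosamine (GlcN) in IL-1β-stimulated MH7A cells, and the effect of that addition on gene expression was examined in 6 of the 15 arrays of the series. The 3 arrays with GlcN and alloxan were set against the 3 arrays with GlcN alone, 1 pair from each of 3 experiments. MH7A cells are an established line grown from rheumatoid synovium, so every value here comes from a single line. All 6 cultures received IL-1β at 15 pg/ml for 13 h and GlcN at 5 mM from 2.5 h before IL-1β. The alloxan cultures were first exposed to 5 mM alloxan (30 min), after which 2 mM was kept together with GlcN. The other 9 arrays, 3 per condition, held resting cells, IL-1β alone, and IL-1β with alloxan but no GlcN. They entered the fit to estimate the spread, and the last 2 conditions gave the effect of alloxan without GlcN.

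GlcN is an amino sugar that cells convert to UDP-GlcNAc, the donor that the O-GlcNAc transferase OGT uses to modify serine and threonine residues of nuclear and cytoplasmic proteins. The hydrolase OGA removes the modification. Alloxan, a pyrimidine compound that resembles uracil, was used in the study as an OGT inhibitor, and it is also known as an inhibitor of glucokinase and as a toxin of pancreatic beta cells. By western blot the study reported that alloxan lowered the O-GlcNAc modification brought about by GlcN in MH7A cells. The comparison asks which genes changed when alloxan was added as an OGT inhibitor while GlcN was present.

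Values are log2 signals summarised by the authors with RMA from Affymetrix Human Gene 1.0 ST arrays. Array medians lay between 6.18 and 7.54, nearly equal within an experiment and different between experiments, so levels compare only inside an experiment. Of 16872 genes tested, 8 of 15 fibroblast markers reached the 50th percentile of their array on at least 3 arrays. The counts were 2 of 7 for leukocyte, 1 of 7 for endothelial and 3 of 7 for epithelial markers. In the largest class by gene length, 10 to 25 kb, 2644 of 3766 genes reached the same level. The count of 8 of 15 therefore does not set the fibroblast markers apart from other genes. With alloxan added to GlcN 2 of the 15 fibroblast markers were lower, COL1A1 and FN1, and none higher. With alloxan without GlcN 6 of 15 were lower. Over all tested genes 3.52% and 7.21% were lower in these comparisons. No leukocyte or epithelial marker passed the test with alloxan added to GlcN. Of the endothelial markers TEK and VWF were lower, at -0.25 ± 0.08 and -0.19 ± 0.09 on the log2 scale (SD, n = 3 experiments). The 7 endothelial markers had mean signals of 4.98 to 7.44 (median 6.06). As 1 of the 7 reached the 50th percentile, at least 1 of these 2 decreases was in low signal.

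Adding alloxan raised 551 genes (3.27% of those tested) and lowered 594 (3.52%), 1145 in all (6.79%), at an adjusted p under 0.05. The test was limma with the experiment as a block over all 15 arrays. The changes were small. The raised genes had a median of 1.22-fold, with 20 past 1.5-fold and 1 past 2-fold. The lowered genes had a median log2 change of 0.37 in size, with 98 past 1.5-fold and 9 past 2-fold. The direction was the same in all 3 experiments for 548 of the raised and all 594 of the lowered genes. These calls rest on the spread of all 5 conditions with the experiment removed. Some genes had tied values between arrays of an experiment. In experiment 1, BAG3 stood at 8.226 at rest, with IL-1β alone, with GlcN and alloxan, and with alloxan without GlcN. How such ties bear on the spread and on the calls was not tested. With the 6 compared arrays alone, still paired, 0 genes passed in either direction (smallest adjusted p over all genes = 0.0803 in limma), although 1427 were higher and 1354 lower at an unadjusted p under 0.05. Without the pairing 0 passed as well, and 1 was higher and 5 lower at an unadjusted p under 0.05. Without GlcN array 2 or 3, or without any 1 of the GlcN and alloxan arrays, 163 to 341 genes were raised, and without GlcN array 1 the number was 853. Lowered genes numbered 376 to 394 without GlcN array 2 or without GlcN and alloxan array 2 or 3.

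The raised gene with the largest change was EGR1, an immediate early zinc finger transcription factor that growth factor and stress signals switch on within minutes. Its log2 signal with GlcN was 8.95, 10.45 and 10.45 in experiments 1 to 3, and with alloxan added it was 10.53, 11.70 and 11.73. EGR1 was higher with alloxan in each experiment. The change was 1.37 ± 0.18 (SD, n = 3), or 2.59-fold (limma adjusted p = 8.76e-05). The promoter of EGR1 is known for CArG boxes, the sites bound by serum response factor. The 250 bases before its RefSeq start, at chr5:138465229-138465478 on the plus strand of GRCh38.p14, hold 2 CArG boxes, shown in capitals.
EGR1: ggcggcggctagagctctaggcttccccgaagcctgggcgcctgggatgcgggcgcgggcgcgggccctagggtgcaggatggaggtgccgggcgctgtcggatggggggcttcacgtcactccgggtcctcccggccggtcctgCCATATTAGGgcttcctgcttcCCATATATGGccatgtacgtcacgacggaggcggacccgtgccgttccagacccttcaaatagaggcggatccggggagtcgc
Promoters of 250 bases before to 50 bases after the start were matched by symbol for 13149 of the tested genes. A CArG box on either strand was in 6 of 458 promoters of raised genes (1.31%), 7 of 492 of lowered genes (1.42%) and 1.18% of all of them.

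Immediate early genes had a median log2 change of 0.12 against -0.01 over all tested genes. Of the 29, 7 rose (24.1%, against 3.27% of all tested genes) and none fell. Besides EGR1 they were the orphan nuclear receptor genes NR4A2 and NR4A3, the AP-1 family genes JUNB and FOSL2, the small MAF gene MAFF, and ZFP36, whose product shortens the life of cytokine mRNAs. NR4A2 had log2 signals of 6.21, 7.22 and 7.75 with GlcN and 6.90, 7.90 and 8.58 with alloxan added, a change of 0.73 ± 0.09 (SD, n = 3, limma adjusted p = 0.0019). The 2 groups overlapped across experiments and were separate within each. MAFF changed by 0.42 ± 0.00 (SD, n = 3), and NR4A3 by 0.56 ± 0.01 (SD, n = 3). Of 21 genes for ERK feedback, 5 rose and none fell, namely SPRY4, a Sprouty inhibitor of receptor tyrosine kinase signalling, at 0.62 ± 0.18 (SD, n = 3), and the MAP kinase phosphatase genes DUSP10, DUSP6, DUSP1 and DUSP5. The EGF receptor ligand gene HBEGF rose by 0.50 ± 0.20 (SD, n = 3) and was the only member called among 11 EGF family ligands and receptors. The 7 immediate early genes called became between 2 and 4 when 1 experiment was left out. The median of 0.12 was 0.06 without GlcN and alloxan array 3 and lay between 0.10 and 0.17 without any other single array of the comparison.

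**Figure D1:**
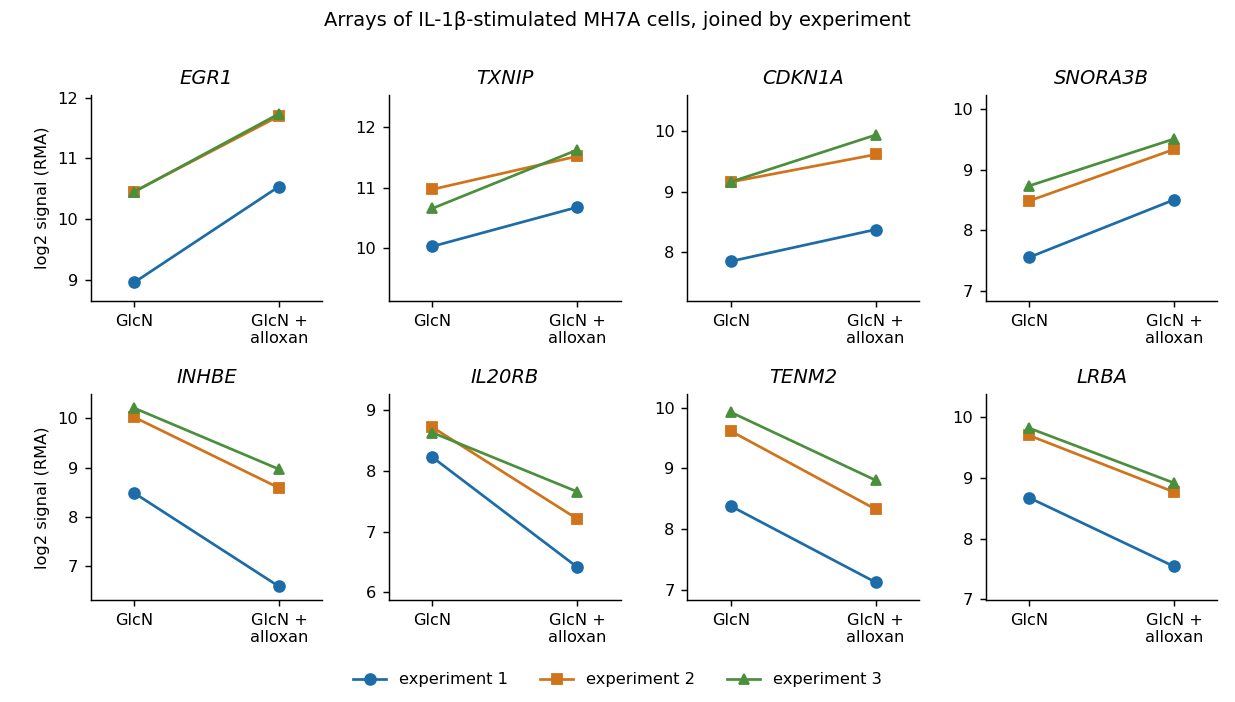
Log2 RMA signal (y axis) of 8 genes in the arrays with GlcN and with GlcN and alloxan (x axis), with each line joining the 2 arrays of an experiment. Every line runs upward for EGR1, TXNIP, CDKN1A and SNORA3B and downward for INHBE, IL20RB, TENM2 and LRBA, while experiment 1 lies lowest in every panel.

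Genes of glucose handling were also among those raised. TXNIP, which encodes the thioredoxin-interacting protein and restrains glucose uptake, had log2 signals of 10.03, 10.98 and 10.66 with GlcN and 10.68, 11.52 and 11.63 with alloxan added. It was higher with alloxan in each experiment, although the groups overlapped across them. The change was 0.72 ± 0.22 (SD, n = 3, limma adjusted p = 0.000423). ARRDC4, an arrestin gene that shares with TXNIP the glucose-sensing regulator MondoA, rose by 0.56 ± 0.24 (SD, n = 3, limma adjusted p = 0.0233). The 250 bases before the RefSeq start of ARRDC4 lie at chr15:97960453-97960702 on the plus strand of GRCh38.p14. MondoA binds E-box type sequences, and the single E-box, CACGTG, is in capitals.
ARRDC4: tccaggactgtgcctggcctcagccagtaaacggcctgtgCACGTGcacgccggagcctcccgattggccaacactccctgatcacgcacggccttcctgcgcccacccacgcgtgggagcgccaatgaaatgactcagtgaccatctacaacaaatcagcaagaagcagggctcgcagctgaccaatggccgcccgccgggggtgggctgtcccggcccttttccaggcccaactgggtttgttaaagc
The E-box was in 59 of 458 promoters of raised genes (12.9%), 49 of 492 of lowered genes (9.96%) and 9.26% of all matched promoters. The shorter ACGTG, part of the E-box and also the core of hypoxia response elements, was in 29.9%, 26.8% and 24.7%.

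Of 16 genes of glucose transport and MondoA control, 4 rose and none fell. The other members raised were the glucose transporter genes SLC2A3 and SLC2A14, near-identical paralogs whose probes may share signal. Of 36 hypoxia-inducible and glycolysis genes 7 rose and 1 fell, with a median of 0.12. Those raised were ALDOC, an aldolase, PDK1, which limits pyruvate entry into mitochondria, SLC2A3, the histone demethylase gene KDM3A, BNIP3, a gene of mitophagy, PFKFB3, a regulator of glycolysis, and the hexokinase gene HK2. HK2 rose by 0.38 ± 0.04 (SD, n = 3) and was the single gene called among 17 of the hexosamine route and O-GlcNAc cycling. That share, 5.88%, was below the 6.79% called over all tested genes. The member that fell was the angiogenic growth factor gene VEGFA, at -0.26 ± 0.11 (SD, n = 3).

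Targets of p53 rose in 5 of 24 cases (20.8%, against 3.27% of all tested genes) and none fell. CDKN1A, the inhibitor of cyclin-dependent kinases, had log2 signals of 7.85, 9.16 and 9.16 with GlcN and 8.38, 9.61 and 9.94 with alloxan added. It was higher in each experiment, by 0.58 ± 0.17 (SD, n = 3, limma adjusted p = 0.000783). The other 4 were PPM1D, PLK3, AEN and FAS, each at between 0.27 and 0.31. Among 37 genes of DNA replication and mitosis 5 rose (13.5%) and none fell. They were led by CCNE2, the cyclin of entry into S phase, at 0.66 ± 0.13 (SD, n = 3), followed by the replication genes CDT1, TYMS, MCM10 and MCM3. Further raised genes with large changes were LRRC39, a leucine-rich repeat gene of muscle, at 0.84 ± 0.35, PGBD1, a transposase-derived gene, at 0.83 ± 0.10, and the lymphocyte phosphatase gene PTPN22 at 0.74 ± 0.34 (SD, n = 3 each).

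Small nucleolar RNAs made up 8 of the 15 raised genes with the largest changes. C/D box snoRNAs guide methylation of ribosomal RNA and H/ACA box snoRNAs guide its pseudouridylation, and most are cut from introns of host genes. Of 81 C/D box snoRNAs 17 were higher (21.0%, against 3.27% of all tested genes) and none lower, with a median log2 change of 0.38. Of 57 H/ACA box snoRNAs 5 were higher and none lower, with a median of 0.15. SNORD4B changed by 0.94 ± 0.24, SNORA14B by 0.89 ± 0.32 and SNORD30 by 0.70 ± 0.29 (SD, n = 3 each). SNORD117, SNORD34, SNORD59B and SNORD14E lay between these, and SNORD59B had the widest spread, at 0.76 ± 0.70 (SD, n = 3). SNORA3B had log2 signals of 7.56, 8.49 and 8.74 with GlcN and 8.51, 9.34 and 9.51 with alloxan added, and rose by 0.86 ± 0.09 (SD, n = 3, limma adjusted p = 0.00054). The C/D box median differed between experiments, at 0.16, 0.57 and 0.35. The count of 17 was 1 without GlcN array 2 or without GlcN and alloxan array 3, 3 without GlcN and alloxan array 2, and 11 without GlcN array 1. Among the called C/D box snoRNAs, 5 had a single tested host gene. None of those 5 hosts was called, and their changes lay between -0.0023 and 0.14. Over all tested C/D box snoRNAs with a single tested host, 4 of 20 distinct hosts were called higher and none lower, and over the H/ACA box snoRNAs 5 of 33 were higher and 1 lower. Small nuclear RNAs of the spliceosome (18 tested) and microRNA loci (105 tested) had no member called.

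The lowered genes were set apart by their length, a feature examined after their values were seen. Length was taken from RefSeq as start to end of the gene, introns included, for 16853 of the 16872 genes. The lowered genes had a median length of 184 kb (quartiles 63.6 and 367 kb), against 24.9 kb over all tested genes and 21.4 kb over the raised genes. Of the 594 lowered genes 400 were at least 100 kb long (67.3%), against 17% of all tested genes. Among the 98 that fell past 1.5-fold the median was 457 kb, and 57 were at least 400 kb long.

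The share of genes that fell was low up to 50 kb and increased beyond. It was 0.364% of genes under 2 kb, 0.773% from 2 to 5 kb, 1.19% from 5 to 10 kb, 1.12% from 10 to 25 kb, 1.42% from 25 to 50 kb, 2.78% from 50 to 100 kb, 7.06% from 100 to 200 kb, 18.8% from 200 to 400 kb and 32.7% at 400 kb and over (134 of 410). In the longest class 1 gene rose, and 90% had a negative change, against 8891 of 16872 over all tested genes. The median log2 change of that class was -0.16 in the fit, and -0.15, -0.23 and -0.15 in experiments 1 to 3. Among genes of the same length whose mean signal was above the median of all tested genes, 87 of 127 fell (68.5%), with a median of -0.44. Below that level 47 of 283 fell, with a median of -0.10. Alloxan without GlcN, on arrays not shared with this comparison, lowered 168 of the 410 longest genes (41%) and 1.18% of those under 2 kb. IL-1β against resting cells left the median of the longest class at -0.01. Across all lengths the rank correlation of the fitted change with length was -0.152, the same as for IL-1β against resting cells, and -0.202 for alloxan without GlcN. By experiment it was -0.272, -0.04 and -0.085, so this correlation did not separate the comparisons in the way the medians of the longest class did. Leaving out 1 array of the comparison gave 103 to 118 lowered genes in the longest class, and leaving out 1 experiment 55 to 69.

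**Figure D2:**
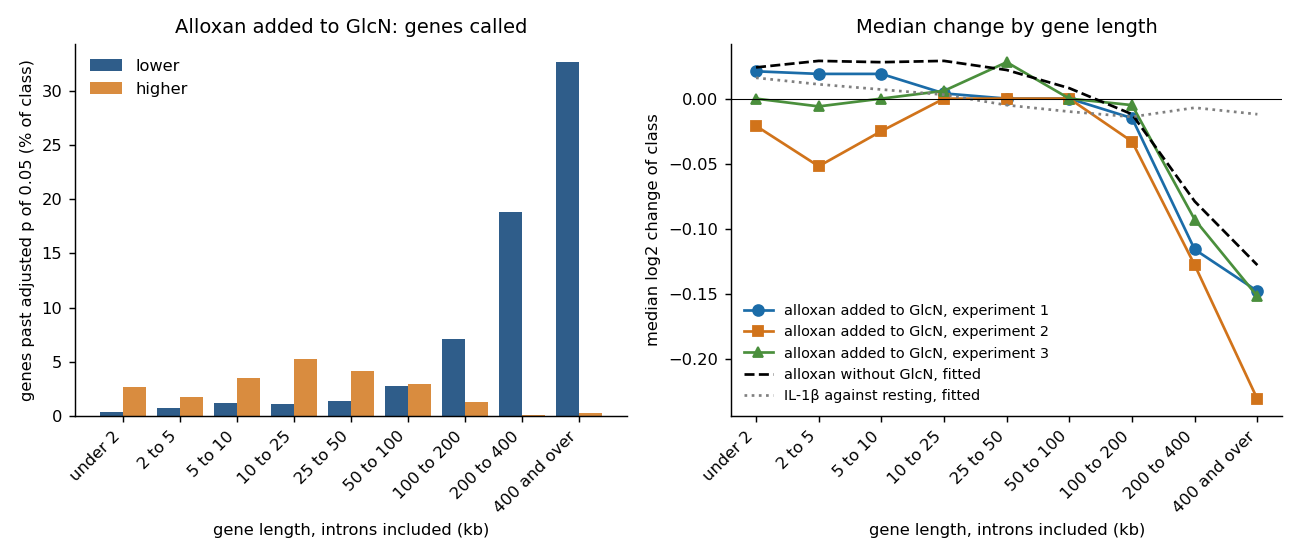
Left, share of genes called lower or higher (y axis, % of the class) with alloxan added to GlcN, by gene length with introns (x axis, kb). Right, median log2 change of each class in the 3 experiments, with the fitted medians for alloxan without GlcN and for IL-1β against resting cells. The lowered share climbs to 32.7% at 400 kb and over, where all 3 experiments have a negative median.

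Long genes with large decreases had varied roles. TENM2, a teneurin of cell adhesion that spans 1285 kb, had log2 signals of 8.38, 9.61 and 9.93 with GlcN and 7.12, 8.32 and 8.80 with alloxan added. Each experiment showed nearly the same decrease, -1.22 ± 0.09 (SD, n = 3, limma adjusted p = 1.36e-05). LRBA (751 kb), which encodes a vesicle trafficking protein needed for CTLA4 recycling, went from 8.68, 9.70 and 9.82 to 7.54, 8.77 and 8.92, a change of -0.99 ± 0.12 (SD, n = 3, limma adjusted p = 8.76e-05). The synaptic vesicle calcium sensor SYT1 (588 kb) changed by -1.18 ± 0.11, the RNA-binding protein gene RBMS3 (729 kb) by -1.06 ± 0.15 and DPYD (843 kb), the first enzyme of pyrimidine breakdown, by -1.05 ± 0.22 (SD, n = 3 each). VPS13B (864 kb), a lipid transfer protein gene of the Golgi, FAT3 (672 kb), an atypical cadherin, ST6GALNAC3 (563 kb), a sialyltransferase, and ZRANB3 (334 kb), a helicase of replication fork repair, each fell by between 0.95 and 1.01 on the log2 scale.

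Several extracellular matrix and lipid groups with lowered members contained long genes. All 25 collagens tested had a negative fitted change, the smallest at -0.0014, and 6 passed. Over all tested genes 8891 of 16872 had a negative change and 3.52% were called lower. The collagens had a median length of 127 kb, and 63.8% of all tested genes of 100 to 200 kb had a negative change. The median over the 25 was 0.01 in experiment 1, -0.19 in experiment 2 and -0.10 in experiment 3, so experiment 1 did not share the shift. The 6 included COL11A1 at -0.47 ± 0.08, COL1A1 at -0.44 ± 0.16 and COL12A1 at -0.34 ± 0.02 (SD, n = 3 each). The median length of the 6 was 182 kb, although COL1A1 is 17.5 kb long. Of 32 MMP, ADAMTS and TIMP genes 4 fell and none rose, the proteases ADAMTS12, ADAMTS6, ADAMTS3 and ADAMTS5, with a median length of 311 kb. The YAP/TAZ target list had 4 of 27 lower and none higher, led by RBMS3, given above, followed by the growth factor gene TGFB2 at -0.87 ± 0.21 (SD, n = 3), MYOF and CRIM1. The median length of the 4 was 186 kb. Of 15 LXR target and fatty acid synthesis genes 3 fell and 1 rose. The carboxylase gene ACACA fell by 0.49, the elongase gene ELOVL6 by 0.37 and the citrate lyase gene ACLY by 0.22 on the log2 scale, while MYLIP, a ubiquitin ligase gene of the LDL receptor, rose by 0.38. EXT1, a polymerase of heparan sulfate, was the single gene called among 35 of hyaluronan and glycosaminoglycan synthesis, at -0.37 ± 0.02 (SD, n = 3). The part of length in these lists was not tested.

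Lowered genes of shorter length included ATF4 targets. ATF4 is the factor that drives the amino acid response and the integrated stress response. Of 46 targets 10 fell (21.7%, against 3.52% of all tested genes) and none rose. A negative change was found for 39 (8891 of 16872 over all tested genes), and the median was -0.25. The 10 had a median length of 35.2 kb. INHBE, an inhibin beta subunit gene of 2.72 kb, had the largest decrease of all tested genes. Its log2 signal was 8.49, 10.02 and 10.20 with GlcN and 6.60, 8.59 and 8.97 with alloxan added. It was lower in every experiment, by -1.52 ± 0.34 (SD, n = 3, limma adjusted p = 0.000457). SLC6A9, a glycine transporter gene, changed by -0.84 ± 0.13, the mitochondrial folate enzyme gene ALDH1L2 by -0.80 ± 0.14 and PCK2, mitochondrial PEP carboxykinase, by -0.56 ± 0.10 (SD, n = 3 each). The other 6 were TRIB3, SLC1A4, JDP2, AARS1, YARS1 and VEGFA. The median change of the list against IL-1β alone was 1.01 with GlcN and 0.83 with GlcN and alloxan. These 2 comparisons share arrays with each other and with the addition of alloxan. Lowered targets numbered 5 without GlcN array 1 or without GlcN and alloxan array 2, 6 without GlcN and alloxan array 3, and up to 9 without another array, and leaving out 1 experiment 2 to 4. The median of the list was -0.14 without GlcN array 1. Of 31 unfolded protein response and ER chaperone genes, 3 fell and none rose, PDIA4, DNAJC10 and SEL1L.

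Other genes high with GlcN also fell when alloxan was added. BEST1, a chloride channel gene, stood at 2.97 above IL-1β alone with GlcN (log2) and changed by -1.22 ± 0.22 (SD, n = 3, limma adjusted p = 0.000246) on addition of alloxan. SPX, the gene of the peptide hormone spexin, stood at 3.08 with GlcN and changed by -0.96 ± 0.21 (SD, n = 3, limma adjusted p = 0.0168). GABRG1, a GABA-A receptor subunit gene, stood at 1.40 and changed by -1.04 ± 0.30 (SD, n = 3, limma adjusted p = 0.00304). FABP3, a fatty acid binding protein gene, was lower with GlcN already, at -0.81, and changed by a further -0.95 ± 0.22 (SD, n = 3, limma adjusted p = 0.0049). The GlcN arrays enter both differences.

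**Figure D3:**
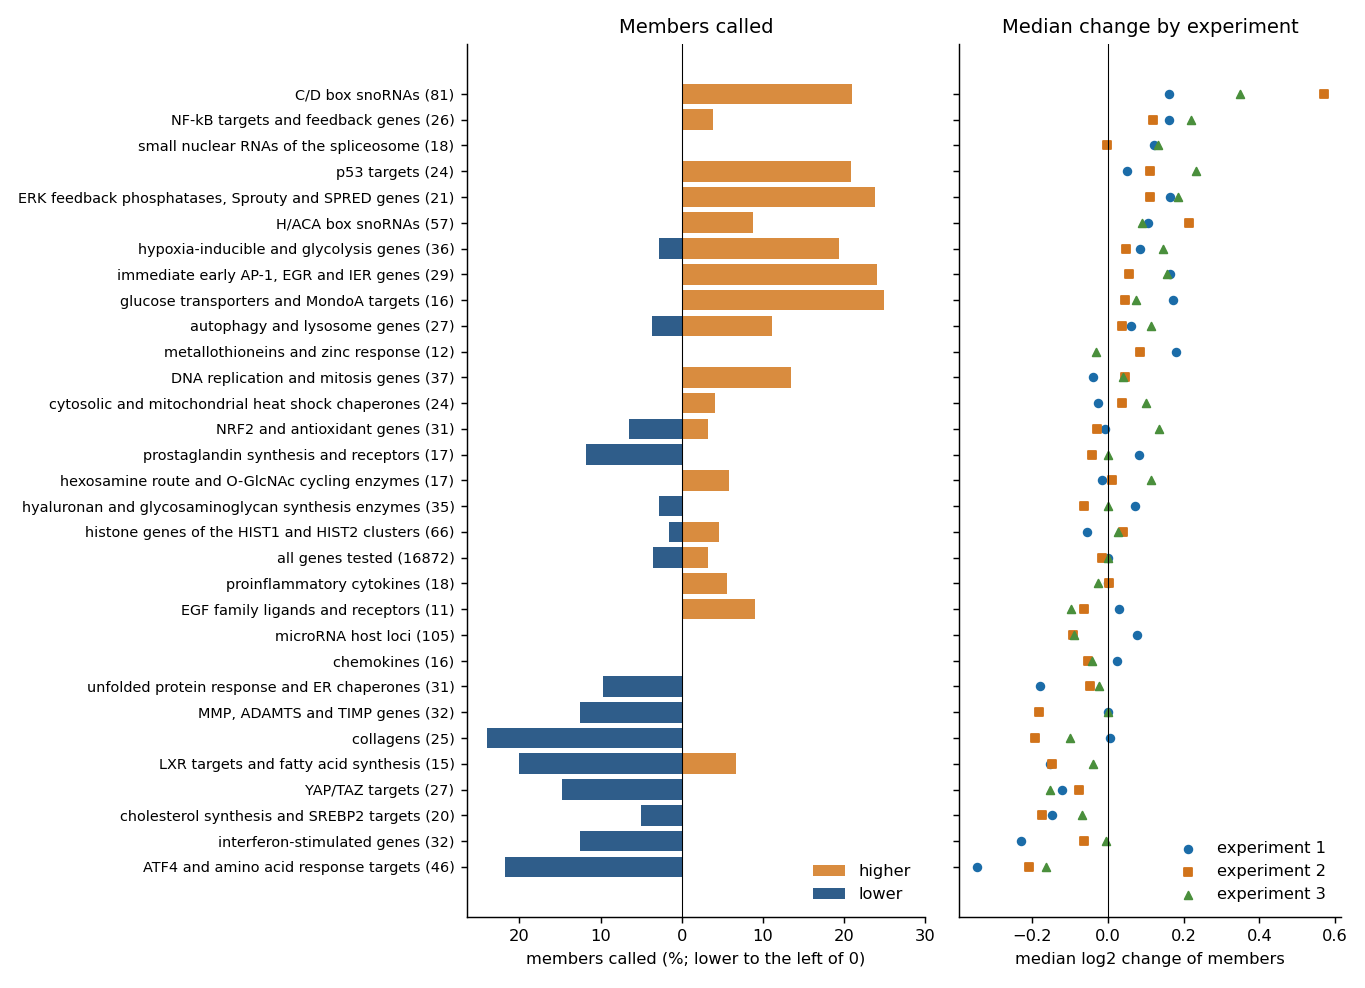
Left, members called higher or lower (x axis, % of the members tested, whose number is in brackets) in 30 gene lists and in all genes, with alloxan added to GlcN. Right, median log2 change of the members in each experiment. C/D box snoRNAs have positive medians and ATF4 targets negative medians in all 3 experiments.

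None of 4 inflammatory genes on which the study centred, TNF, IL24, CXCL8 and IL6, passed the test, and their intervals were wide. The study also used quantitative RT-PCR and ELISA, which are not part of these arrays. By RT-PCR it reported that alloxan undid the GlcN decrease of TNF and CXCL8 but not of IL6 and IL24. By ELISA it reported the same for the CXCL8 and IL6 proteins, and no clear effect on TNF protein. TNF had log2 signals of 5.10, 6.55 and 6.91 with GlcN and 5.77, 6.53 and 7.09 with alloxan added. It was higher in experiments 1 and 3 and nearly equal in experiment 2, a difference of 0.28 ± 0.35 (SD, n = 3, limma adjusted p = 0.115, 95% interval 0.07 to 0.49). IL24, a cytokine gene of the IL-10 family, differed by 0.31 ± 0.06 (SD, n = 3, limma adjusted p = 0.16, 95% interval 0.04 to 0.58), with a positive value in 3 of 3 experiments. The neutrophil chemokine gene CXCL8 differed by 0.32 ± 0.19 (SD, n = 3, limma adjusted p = 0.413, 95% interval -0.15 to 0.80). IL6 differed by -0.05 ± 0.36 (SD, n = 3, limma adjusted p = 0.925, 95% interval -0.48 to 0.39), lower in experiment 1 and higher in the other two. Against IL-1β alone, the fitted log2 change of CXCL8 was -0.38 with GlcN and -0.05 with GlcN and alloxan, that of TNF -0.31 and -0.03, that of IL24 -0.91 and -0.59 and that of IL6 -1.07 and -1.12. These comparisons share arrays. Without GlcN, alloxan raised CXCL8 by 0.90 ± 0.30 (SD, n = 3, limma adjusted p = 0.0186). The interaction for CXCL8 was -0.58 and did not pass (limma adjusted p = 0.498). Of 18 proinflammatory cytokines the only one called was IL11, an IL-6 family cytokine, at 0.53 ± 0.07 (SD, n = 3, limma adjusted p = 0.035). Of 16 chemokines none passed. Of 26 NF-κB targets and feedback genes 24 had a positive change (median 0.17), against 7830 of 16872 over all tested genes. The only one that passed was TNIP2, an inhibitor of NF-κB signalling. OGT itself differed by -0.26 ± 0.20 (SD, n = 3, limma adjusted p = 0.0828, 95% interval -0.44 to -0.08) and OGA by 0.11 ± 0.26 (SD, n = 3, limma adjusted p = 0.5, 95% interval -0.08 to 0.30). Transcript levels do not report the activity of either enzyme.

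The remaining lists had few members called. Over all tested genes 6.79% were called, 3.27% higher and 3.52% lower. Interferon-stimulated genes fell in 4 of 32 cases (DDX60, IFI35, XAF1 and ISG20) and none rose. In the antioxidant list NQO1, a quinone reductase gene and NRF2 target, rose by 0.37 ± 0.12 (SD, n = 3), while ABCC4 and TRIM16 fell. In the prostaglandin list the leukotriene genes ALOX5AP and ALOX5 fell and PTGS2 was not called, at 0.13 ± 0.06 (SD, n = 3). On each of the 6 arrays compared, ALOX5AP and ALOX5 lay below the array median, so both decreases were in low signal. The cholesterol synthesis gene LSS fell, at -0.55 ± 0.09 (SD, n = 3), as 1 of 20 in its list. Among 27 autophagy and lysosome genes 3 rose and 1 fell (14.8%), and among 66 histone genes 3 rose and 1 fell (6.06%). The histone share was below that of all tested genes. BAG3 was the only one raised of 24 heat shock chaperone genes. None of 12 metallothionein and zinc response genes passed.

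Alloxan without GlcN raised 1034 genes (6.13%) and lowered 1216 (7.21%) against IL-1β alone in limma with the block. The 2 comparisons share no array. They come from 1 fit with the same estimated spread per gene, so their lists of calls are not independent. Of the 551 genes raised on addition to GlcN, 227 were raised without GlcN as well, 41.2% of the first list and 22% of the second. Of the 594 lowered genes 424 were lowered without GlcN as well, 71.4% of the first list and 34.9% of the second. Opposite calls were found for 0 raised genes and 1 lowered gene. Across the 16872 genes, which are not independent, the 2 changes had a Pearson correlation of 0.582. EGR1 changed by 1.36 without GlcN and TENM2 by -1.66 (limma adjusted p = 2.85e-05 and 9.89e-07). TXNIP changed by 0.76 and LRBA by -0.99. The C/D box snoRNAs had a median of 0.04 without GlcN with 3 called higher. The ATF4 targets had a median of 0.07 without GlcN, with 10 called higher and 3 lower. Some lists had more calls without GlcN than with it, as did all tested genes (13.3% against 6.79%). Over all tested genes 6.13% rose without GlcN, against 3.27% with it. Of 24 p53 targets 16 rose without GlcN and none fell (median 0.32), and CDKN1A rose by 0.88 ± 0.03 (SD, n = 3). Of 29 immediate early genes 14 rose and none fell (median 0.19). Of 27 YAP/TAZ targets 12 fell and 4 rose.

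The interaction, which tests whether the change with alloxan differed between cells with and without GlcN, passed for 12 genes (0.0711%), 2 higher and 10 lower. IL20RB, a receptor subunit for IL-20 family cytokines including IL-24, had log2 signals of 8.23, 8.72 and 8.63 with GlcN and 6.41, 7.21 and 7.66 with alloxan added. IL20RB was lower with alloxan in each experiment. Its change was -1.43 ± 0.42 with GlcN and 0.21 ± 0.15 without (SD, n = 3 each, limma adjusted p for the interaction = 0.0112). SLFN5, a Schlafen family gene, and PDE5A, the cyclic GMP phosphodiesterase gene, fell where GlcN was present, at -0.79 ± 0.10 and -0.94 ± 0.18, against 0.31 ± 0.15 and -0.05 ± 0.24 without GlcN (SD, n = 3 each), and the interaction passed for both. In the other pattern a gene moved with alloxan alone and little on top of GlcN. GDF15, a stress-induced cytokine gene, rose by 1.63 ± 0.21 without GlcN and differed by 0.11 ± 0.24 with it (SD, n = 3 each, limma adjusted p for the interaction = 0.00515). DDIT4, an inhibitor of mTORC1, rose by 0.88 ± 0.35 without GlcN and differed by -0.27 ± 0.19 with it (SD, n = 3 each, limma adjusted p for the interaction = 0.0309). GDF15 and DDIT4 already stood at 0.96 and 1.11 above IL-1β alone with GlcN. CCBE1, a lymphangiogenic matrix protein gene, fell with alloxan in both settings, by 1.23 without GlcN and by 0.58 with it on the log2 scale. Of the 12 genes none passed when any 1 experiment was left out, since 0 genes passed in either direction in those fits.

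**Figure D4:**
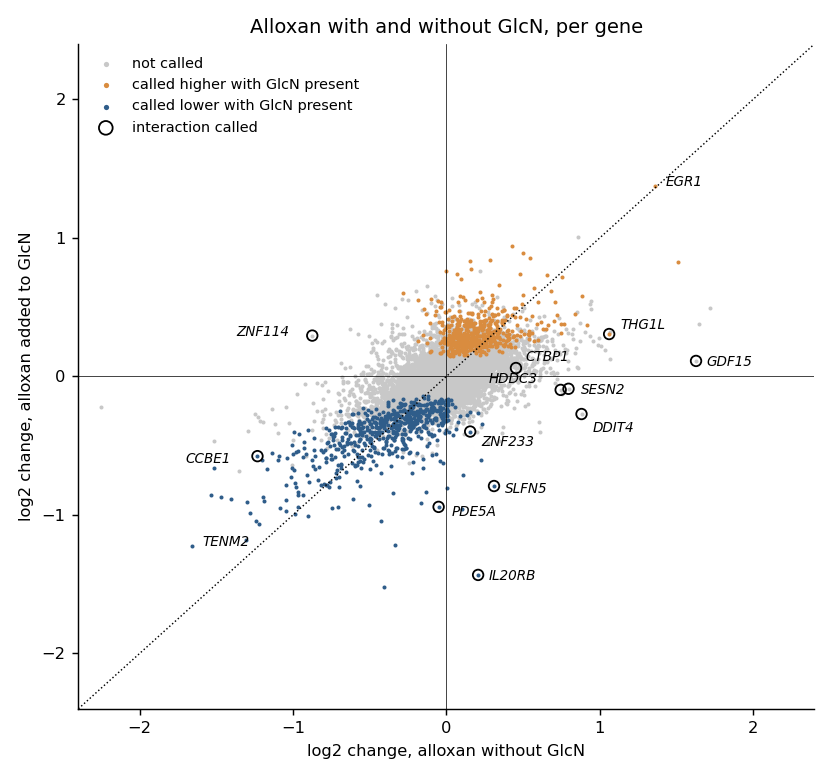
Log2 change with alloxan added to GlcN (y axis) against the log2 change with alloxan without GlcN (x axis) for 16872 genes, with called genes coloured, the 12 genes with a called interaction circled and the dotted line marking equal changes. Most called genes lie in the quadrants where both changes have the same sign, and IL20RB and GDF15 lie far from the line.

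**Figure D5:**
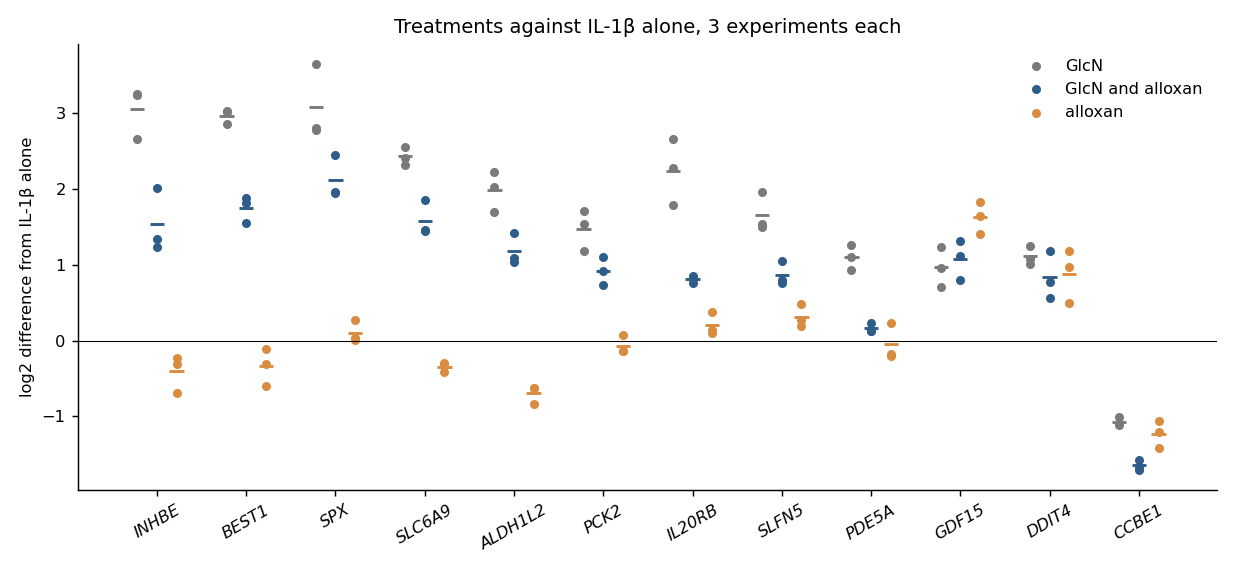
Log2 difference from IL-1β alone (y axis) for 12 genes with GlcN, with GlcN and alloxan, and with alloxan, where points are the 3 experiments and bars their means. INHBE, BEST1, SPX and IL20RB are highest with GlcN, lower with both and near 0 with alloxan, while GDF15 is high in all 3.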

How the data were processed

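Gene expression was measured in MH7A cells with 15 Affymetrix Human Gene 1.0 ST arrays, 3 for each of 5 conditions. The authors summarised probes with RMA, and the deposited values are log2 signals, 1 per transcript cluster. Background correction and normalization were kept as deposited. Precision is limited by the number of arrays, and no detection call was used.

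Of 33297 clusters, 19460 carried 1 symbol, 1754 several and 12083 no listed symbol, and gene IDs in RefSeq (GRCh38.p14) named 19429. Each of 18417 symbols was represented by its brightest cluster, and 3 or more arrays with that cluster at or above their 20th percentile were required, leaving 16872 genes. No 2 arrays were duplicates, with a highest correlation of 0.998. Conditions were compared with limma 3.58.1 in R 4.3.3, with 5 group means and the experiment number as a fixed block, leaving 8 residual and 11.1 total degrees of freedom. Tests are two-sided, with Benjamini-Hochberg adjustment over all genes and a threshold of 0.05. The labels number the experiments. Arrays with the same number deviated together from their group means (correlations 0.621 to 0.848 over 30 pairs, -0.656 to -0.068 over 60 pairs of different numbers). Where nothing else is said an error is the SD of 3 within-experiment differences. Whether the experiments came from separate cell stocks is not given in the sources used here.

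The arrays compared, the 34 gene lists and the tests were chosen with earlier results of these data known. Genes named were TNF, CXCL8, IL6, IL24, OGT and OGA, the 15 per direction that changed most among those past the threshold with 1 sign in all 3 experiments, up to 4 members of each list with the smallest p, and up to 5 per direction for the interaction. Further members of lists with few calls, and 5 interaction genes, were named after their values were seen, as was the analysis of length. Promoters were searched for 8 motifs on both strands. The fit was tested on simulated data. Alternatives were no block, only the groups compared, other filters and normalizations, the mean over clusters, trend and robust moderation, the methods' t-test, and leaving out each array or experiment. Figures were drawn with matplotlib 3.10.9.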

Additional observations from a re-analysis of the deposited data

Results flagged for a closer look

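The change with alloxan differed between cells with and without GlcN for 12 genes in limma's interaction test. The interaction was negative, meaning a lower change where GlcN was present, for IL20RB (-1.64 on the log2 scale), GDF15 (-1.52), DDIT4 (-1.15), SLFN5 (-1.10) and PDE5A (-0.89). The same held for the leucine sensor gene SESN2 (-0.89), the nucleotide hydrolase gene HDDC3 (-0.84), the tRNA-histidine guanylyltransferase gene THG1L (-0.76), the zinc finger gene ZNF233 (-0.55) and the corepressor gene CTBP1 (-0.39). It was positive for CCBE1 (0.66) and the zinc finger gene ZNF114 (1.17). SESN2, HDDC3, THG1L and CTBP1 rose with alloxan without GlcN, by 0.80, 0.75, 1.06 and 0.45, and of these THG1L also rose with GlcN present, by 0.31. With GlcN alone SESN2, HDDC3 and THG1L stood at 1.33, 1.06 and 0.88 above IL-1β. ZNF114 fell by 0.87 without GlcN and differed by 0.29 ± 0.25 (SD, n = 3 experiments) with it. CD180 had a larger positive value than either, 2.03 ± 0.56 (SD, n = 3 experiments), and did not pass (limma adjusted p = 0.062). SNORD79 and LGR5 did not pass either, at 1.04 and 0.97. Each group held 3 arrays, too few to look for single outlying arrays.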

How the results depend on the processing

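All 106 named genes called with alloxan added to GlcN kept their direction in every fit that tested them. For most fits this was fixed in advance and is no check. The block, the filters, the moderation and the t-test leave the log2 change as it is. A gene with 1 sign in all 3 experiments also keeps it when 1 experiment is left out. The calls could vary, and they rested on the replicate block fitted over all conditions. With no replicate block, and with the methods' t-test, 0 genes passed for the addition of alloxan and 0 for alloxan without GlcN, in either direction. The same held with the replicate block over only the groups compared. The interaction, which the t-test could not give, passed for 0 genes without the block and for 4 higher and 7 lower with only its groups. In those 3 settings the counts of genes of 400 kb and over, C/D box snoRNAs, ATF4 targets and immediate early genes were also 0. At an unadjusted p under 0.05 that t-test had 4 higher and 3 lower. For the interaction the higher count was 8 with the 50th percentile filter, 7 with quantile normalization (16 lower), 1 with equal medians and 4 with trend and robust moderation. The median of the longest genes moved from -0.16 to -0.39 with the 50th percentile filter. Under the other filters, normalizations and moderation the counts for the addition of alloxan stayed within 1.5 times, from 455 to 690 higher and from 477 to 734 lower.

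Leaving out 1 array or experiment gave 20 to 853 genes higher and 137 to 702 lower for the addition of alloxan, 263 to 974 and 405 to 977 for alloxan without GlcN, and 0 to 25 and 0 to 14 for the interaction. The lowest higher count was without experiment 3, and the highest without GlcN array 1. For the groups the ranges were 55 to 118 lowered genes of 400 kb and over (median -0.19 to -0.14), 0 to 13 C/D box snoRNAs, 2 to 9 ATF4 targets (median -0.28 to -0.14) and 2 to 7 immediate early genes (median 0.06 to 0.17). Signs turned only for genes not called: IL6 (-0.19 to 0.15), CD180 (-0.42 to 0.11), GDF15 (-0.014 to 0.24) and ITGAM (-0.11 to 0.00). Why the calls differ was not tested, except that fits on fewer arrays have fewer degrees of freedom.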
